A study of Mus musculus with 4 samples.

Results

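The 33 genes of homologous recombination, the Fanconi anaemia pathway and mismatch repair described here were read from the authors' deposited table by gene symbol, and all of them were present and had been tested, among 23275 entries of which 12683 were tested. RNA came from B220+CD43+ cells, a surface phenotype of early B-lineage cells, sorted from the bone marrow of C57BL/6 mice aged 8 weeks. The control group, called wild-type here, had the genotype Hdac3+/+Mb1cre+/-, and the Hdac3-deleted group had the genotype Hdac3F/-Mb1cre+/-, so both carried the Mb1 recombinase, which acts from the early B-cell stage onward, and in the second group every cell of the mouse carried 1 null Hdac3 allele. Each genotype had 2 libraries, and each library pooled cells of 2 mice. The deposited levels are 1 value per genotype in FPKM (fragment counts divided by transcript length and by the size of the library), which sets genes of different length on 1 scale, and no value per library was used here. Differences below are log2 of the Hdac3-deleted over the wild-type FPKM, so a negative value means a lower level in Hdac3-deleted cells.

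Homologous recombination copies the lost sequence at a DNA break from an intact sister chromatid, and is therefore used mainly while cells replicate their DNA. The Fanconi pathway unhooks crosslinks between DNA strands at stalled replication forks and hands the resulting break to recombination, and mismatch repair corrects bases that the replicating polymerases set wrongly. In early B cells the breaks made by the RAG recombinase at immunoglobulin genes are normally joined by end joining, a separate pathway. Mre11a, Rad50 and Nbn and the genes that mark chromatin around a break are known to act at such breaks too.

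Most of these genes were measured at lower levels in Hdac3-deleted cells, by small amounts, and only 2 passed the authors' test. Bard1, the partner of BRCA1, fell from 13.2 to 6.74 FPKM, and Rad51c, which works in strand exchange, fell from 8.56 to 5.28 FPKM. Differences of 27 of the 33 genes lay below 0, or 81.8%, against 46.6% of all tested entries. The median difference was -0.28, beside 0.03 over all tested entries. The middle of the distribution, between the quartiles, ran from -0.55 to -0.10 for the repair genes and from -0.19 to 0.24 for all tested entries.

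At the authors' Cuffdiff q-value under 0.05, 2 of 33 genes were called, both lower, which is 6.06%. Over all tested entries 6.95% were called, with 4.14% lower and 2.81% higher, so the count of called repair genes was near the background. At a q-value under 0.1 the lower genes numbered 6, or 18.2%, beside 5.31% of all tested entries. These were Bard1, Rad51c, Fancd2, Rad54l, Nbn and Rbbp8. At an unadjusted p-value under 0.05 there were 11 lower genes beside 8.95% of all tested entries, and 1 higher gene, Fancm, beside 8.16%. Among the repair genes 5 were at least 1.5-fold lower and 0 at least 1.5-fold higher, while 7.59% and 6.58% of all tested entries were so. A 95% interval was computed for each difference from the authors' test statistic, with a median standard error of 0.28 on the log2 scale. It lay below 0 for 6 genes, above 0 for 0, and held 0 for the other 27. These intervals were wider than the authors' p-values imply, since 11 genes were lower at an unadjusted Cuffdiff p-value under 0.05. For Rad51c the normal p-value of the test statistic was 0.0102, against 0.0017 from Cuffdiff. By these wide intervals, a difference of the size of the median was not detectable for most of these genes.

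**Figure D1:**
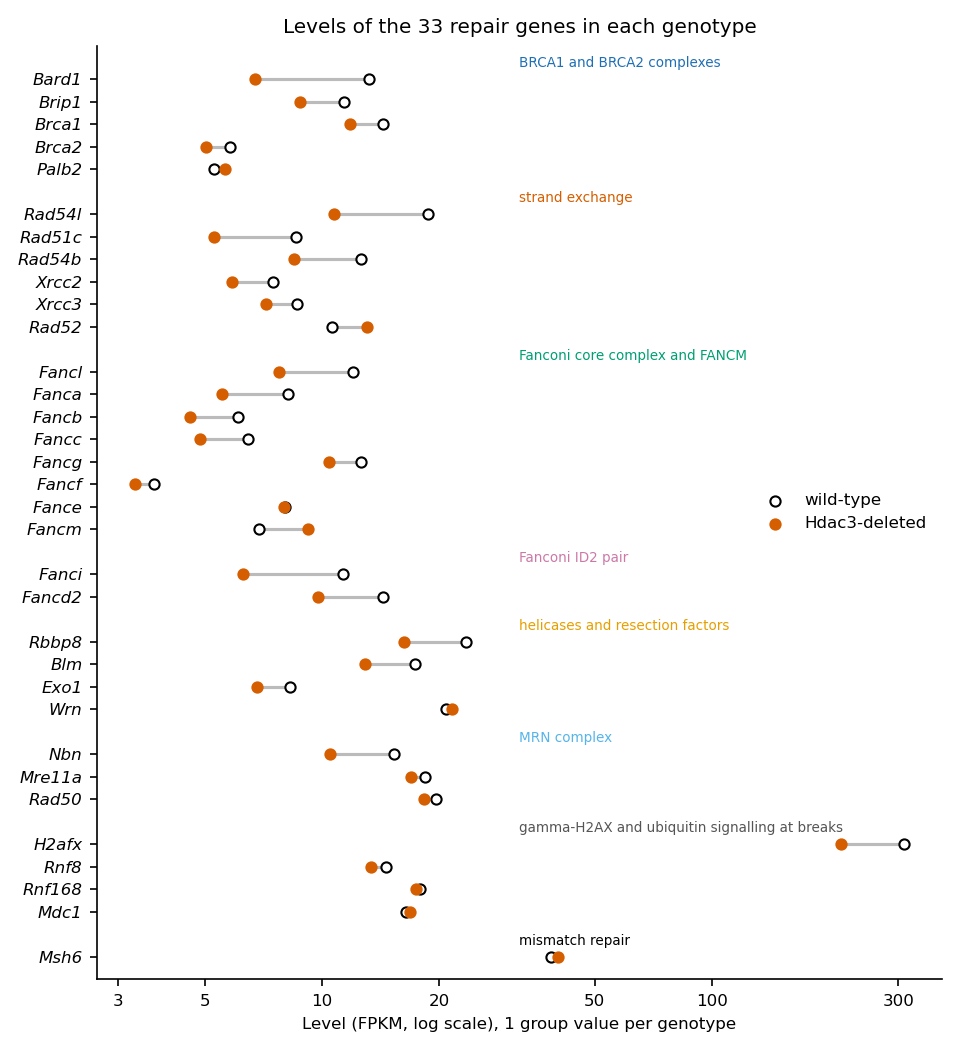
Level of each of the 33 repair genes in FPKM on a log axis, with open circles for wild-type and filled circles for Hdac3-deleted cells, 1 group value per genotype and no replicate error. Most filled circles lie to the left of the open ones, H2afx stands far to the right at 310 and 214 FPKM, and Fancm, Rad52, Palb2, Msh6, Wrn and Mdc1 have the filled circle on the right.

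Short stretches of promoter are shown for the repair genes that carry letters of an E2F site, because E2F factors are known to drive genes at the start of DNA replication and both called genes are among them. The RefSeq table of promoters (build GRCm38.p6, from 250 bases before to 50 bases after each start site) held 24 of the 33 genes, not Exo1, Fancd2, H2afx, Nbn, Rad50, Rad54b, Rbbp8, Wrn or Xrcc2. Both strands were searched for TTTCCCGC, TTTGGCGC, TTTCGCGC and TTTGCCGC, none of which overlap in these windows. A match was found in 6 of 24 genes, or 25%, beside 4.73% of 8972 tested genes with a promoter in the table and 2.26% of all 32851 windows. Each line below gives 30 bases on the strand of the gene, 5′ to 3′, with the match in capitals, and a match that reads GCGGGAAA is the first of these motifs on the opposite strand.
Bard1: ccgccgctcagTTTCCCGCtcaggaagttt
Rad51c, downstream start: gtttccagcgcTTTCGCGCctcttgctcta
Rad51c, upstream start: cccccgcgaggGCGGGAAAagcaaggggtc
Brca2: tttaggccacaGCGGGAAAcagacacacac
Fancg: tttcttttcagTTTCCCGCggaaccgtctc
Mdc1: tcttcagcctgTTTCCCGCcggtagccgca
Msh6: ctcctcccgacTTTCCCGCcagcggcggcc

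The Bard1 stretch is chr1:71103163-71103192 on the minus strand, and its match begins at position -209 from the RefSeq start site. The Rad51c stretches are chr11:87404477-87404506 and chr11:87404941-87404970, also on the minus strand, 1 at each of its 2 annotated starts. Those of Brca2 (chr5:150522442-150522471), Mdc1 (chr17:35841471-35841500) and Msh6 (chr17:87975054-87975083) are on the plus strand, and that of Fancg (chr4:43010335-43010364) is on the minus strand. The genes with a match did not share 1 direction of difference. Bard1 and Rad51c fell, whereas Mdc1 and Msh6 measured 0.03 and 0.06. The median was -0.24 with a match and -0.28 for the 18 genes without one. Genes with no promoter in the table are in neither median. Of those, Fancd2, Nbn, H2afx, Rad54b and Rbbp8 measured between -0.57 and -0.53. The others were Xrcc2 at -0.35, Exo1 at -0.28, Rad50 at -0.10 and Wrn at 0.05. The letters of the CHR element (TTTGAA or TTCGAA), known from genes of late cell cycle phases, were in the windows of 2 genes, Bard1 and Rnf8, or 8.33% beside 16.4% of tested genes. CCAAT was in 16 windows, or 66.7% beside 43.3%. The genes with CCAAT had a median difference of -0.21 and the 8 without it -0.45. These matches describe letters in a window and not binding.

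The first group holds the BRCA1 and BRCA2 complexes, which prepare a break for recombination. In this group 1 of 5 genes was called, or 20% beside 6.95% of all tested entries, and the median difference was -0.28. Bard1 lies on chromosome 1 from 71027535 to 71102972 (mm10, the build of the deposited table) on the minus strand, and none of its exon bases are shared with another gene of the GENCODE annotation. It was 13.2 FPKM in wild-type against 6.74 FPKM in Hdac3-deleted cells, or 51.2%. That is a difference of -0.97 with an interval from -1.44 to -0.49, and the authors' Cuffdiff test gives q = 0.0016. Of all tested entries 3.88% had a lower difference. Brca1, the ubiquitin ligase subunit that pairs with BARD1, measured 14.4 and 11.8 FPKM, a difference of -0.28 with an interval from -0.81 to 0.24 (q = 0.50, Cuffdiff). The ratio of Brca1 to Bard1 levels was 1.09 in wild-type against 1.75 in Hdac3-deleted cells. The gap between their differences was 0.68 on the log2 scale, with an interval from -0.02 to 1.39. Because the intervals are wider than the authors' p-values imply, this does not decide whether the partners changed unequally.

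Brip1, the helicase that binds BRCA1, was 11.4 and 8.76 FPKM. Brca2, which acts on resected single-stranded DNA, was 5.82 and 5.05 FPKM, and its partner Palb2, the bridge between BRCA1 and BRCA2, was 5.28 and 5.65 FPKM. None of these 3 genes passed the test, and Palb2 alone of the 5 had a positive difference, 0.10.

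The second group acts in strand exchange. Of its 6 genes 1 was called, or 16.7% beside 6.95% of all tested entries, and the median difference was -0.46. Rad51c lies on chromosome 11 from 87377607 to 87404495 on the minus strand and shares no exon bases with another annotated gene. It was 8.56 FPKM in wild-type against 5.28 FPKM in Hdac3-deleted cells, a difference of -0.70 with an interval from -1.23 to -0.17 (q = 0.0293, Cuffdiff). With a p-value taken from the normal distribution of the authors' test statistic and adjusted over all tested entries, Rad51c had q = 0.178 and was no longer called, while Bard1 had q = 0.00332. Xrcc2 and Xrcc3, which are related to Rad51c, were at 7.49 and 5.86 FPKM and at 8.64 and 7.18 FPKM. Xrcc3 had the widest interval of all 33 genes, from -1.49 to 0.96.

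Rad54l and Rad54b encode motor proteins that help a broken strand to invade its template. Rad54l was 18.7 FPKM in wild-type against 10.7 FPKM in Hdac3-deleted cells, a difference of -0.80 that did not pass (q = 0.0894, Cuffdiff). Rad54b was 12.6 and 8.48 FPKM, a difference of -0.57 (q = 0.132, Cuffdiff). The size of the Rad54l difference exceeded that of the called Rad51c, but its standard error was 0.42 against 0.27. Rad52, which anneals single strands, was 10.6 and 13.0 FPKM, the 1 gene of this group with a positive difference, 0.30.

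Of the Fanconi core complex, the ubiquitin ligase assembly that senses crosslinks, and FANCM, the translocase that anchors it to DNA, 0 of 8 genes were called by the authors' Cuffdiff test, and the median difference was -0.34. At an unadjusted p-value under 0.05, 1 was lower and 1 higher. Differences of 7 of the 8 lay below 0. Fancl, the ligase subunit itself, was 12.0 and 7.77 FPKM, and Fanca 8.20 and 5.53 FPKM, differences of -0.62 and -0.57. Fancb and Fancc, which encode further core subunits, were 6.10 and 4.58 FPKM, and 6.45 and 4.87 FPKM. Fancg was 12.6 and 10.4 FPKM, and Fancf, the lowest of the 33 genes in both genotypes, 3.70 and 3.32 FPKM. Fance, which contacts FANCD2, was 8.04 and 7.99 FPKM, with an interval from -0.66 to 0.64. Fancm had the most positive difference of the 33, 6.88 against 9.23 FPKM or 0.42 on the log2 scale, with an interval from -0.07 to 0.92 (q = 0.216, Cuffdiff).

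Fancd2 and Fanci form the clamp that the core complex marks with ubiquitin. Fancd2 was 14.3 FPKM in wild-type against 9.79 FPKM in Hdac3-deleted cells, a difference of -0.55 with an interval from -1.04 to -0.06 (q = 0.070, Cuffdiff). Fanci was 11.3 and 6.29 FPKM, a difference of -0.84 with an interval from -1.67 to -0.02 (q = 0.119, Cuffdiff). Neither passed the test, although both were lower at an unadjusted p-value under 0.05. The ratio of Fancd2 to Fanci was 1.27 in wild-type against 1.56 in Hdac3-deleted cells, and the interval of the gap between their differences, from -0.66 to 1.25, held 0.

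**Figure D2:**
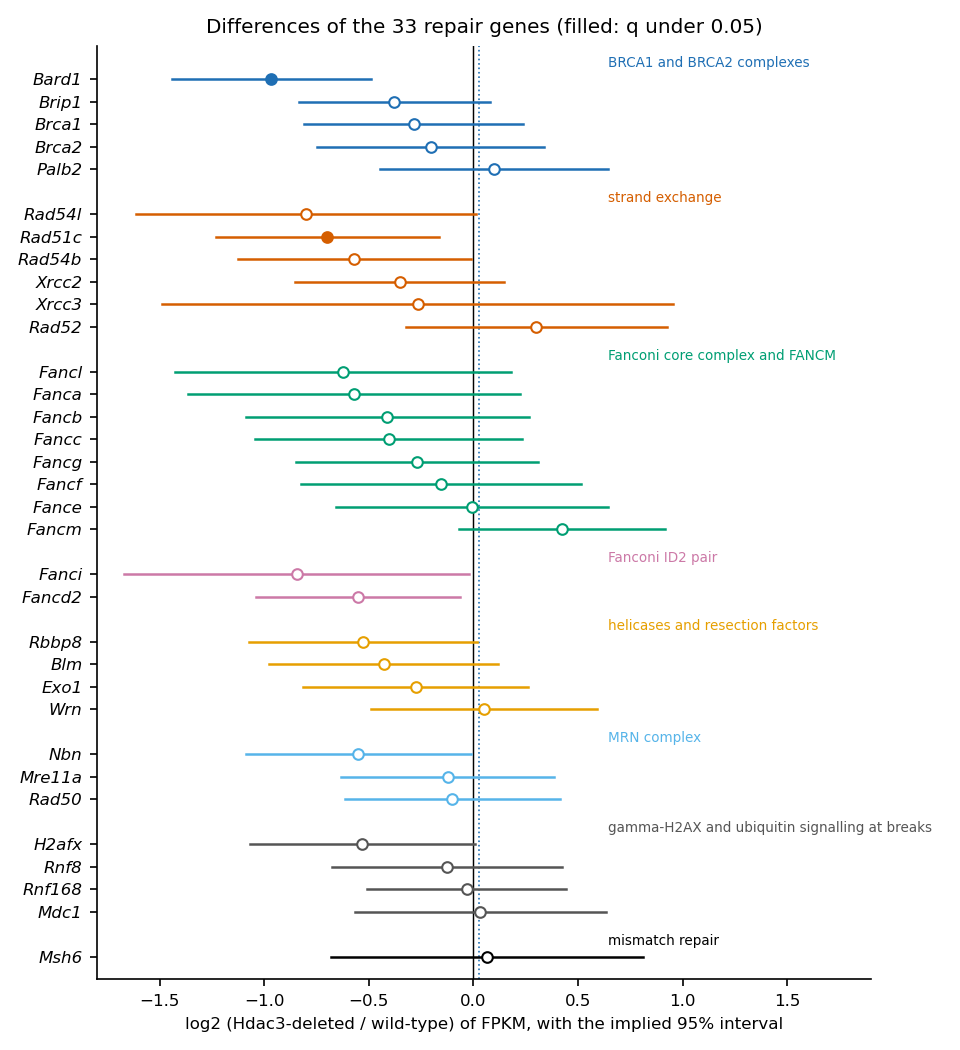
Difference of each repair gene as log2 of Hdac3-deleted over wild-type FPKM, grouped by role, with the 95% interval implied by the authors' test statistic and filled points for q under 0.05. The dotted line is the median of all tested entries, 0.03, and Bard1 and Rad51c are the filled points at -0.97 and -0.70.

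Among helicases and resection factors 0 of 4 genes were called by Cuffdiff, and 2 were lower at an unadjusted p-value under 0.05. Rbbp8, which encodes CtIP, the factor that starts resection of break ends, was 23.4 and 16.2 FPKM, a difference of -0.53 (q = 0.0836, Cuffdiff). Exo1, the nuclease that extends resection and also removes the strand with a mismatch, was 8.27 and 6.82 FPKM. The helicases Blm and Wrn are relatives of RecQ that dissolve recombination intermediates. Blm was 17.3 and 12.9 FPKM, and Wrn 20.8 and 21.6 FPKM, differences of -0.43 and 0.05 whose gap had an interval from -1.25 to 0.29.

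The MRN complex, made of MRE11, RAD50 and NBN, is the first to bind a break, and 0 of its 3 genes were called by Cuffdiff, with 1 lower at an unadjusted p-value under 0.05. Nbn, its signalling subunit, was 15.3 FPKM in wild-type against 10.5 FPKM in Hdac3-deleted cells, a difference of -0.55 (q = 0.0909, Cuffdiff). The nuclease gene Mre11a was 18.4 and 16.9 FPKM, and Rad50, the tether, 19.6 and 18.3 FPKM, which is 91.8% and 93.3% of wild-type. The ratio of Nbn to Rad50 was 0.780 in wild-type against 0.571 in Hdac3-deleted cells, with an interval of the gap from -1.20 to 0.30.

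In the signalling group that marks chromatin around a break, 0 of 4 genes were called by Cuffdiff, 1 was lower at an unadjusted p-value under 0.05, and the median difference was -0.08. H2afx, which encodes the histone variant that becomes gamma-H2AX, was the most abundant of the 33 genes at 310 FPKM in wild-type against 214 FPKM in Hdac3-deleted cells, a difference of -0.53 (q = 0.108, Cuffdiff). Its reader Mdc1 was 16.4 and 16.8 FPKM. The ubiquitin ligase genes Rnf8 and Rnf168 were 14.6 and 13.4 FPKM, and 17.8 and 17.4 FPKM. Mdc1, Rnf8 and Rnf168 thus stood between 91.7% and 102% of wild-type, with intervals that reached -0.67 at the lowest and 0.63 at the highest. Msh6, a subunit of the mismatch recognition clamp, was the second most abundant gene at 38.6 and 40.4 FPKM, and its interval ran from -0.68 to 0.81.

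Across 13 pairs of partners or relatives, chosen after their values were seen, the interval of the gap between the 2 differences held 0 in all 13. These intervals are wider than the authors' p-values imply, so equal change within the pairs is not shown. The order of levels was much the same in the 2 genotypes, with H2afx and Msh6 first and Fancf last in both. In wild-type 30 of the 33 genes lay between 5 and 25 FPKM. Spearman's rank correlation between the genotypes was 0.90 over the 33 genes, which share their libraries, and that between wild-type level and difference was -0.05, both as a description. The genes were spread over many chromosomes, with 5 on chromosome 11 and 4 each on chromosomes 4, 7 and 17.

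**Figure D3:**
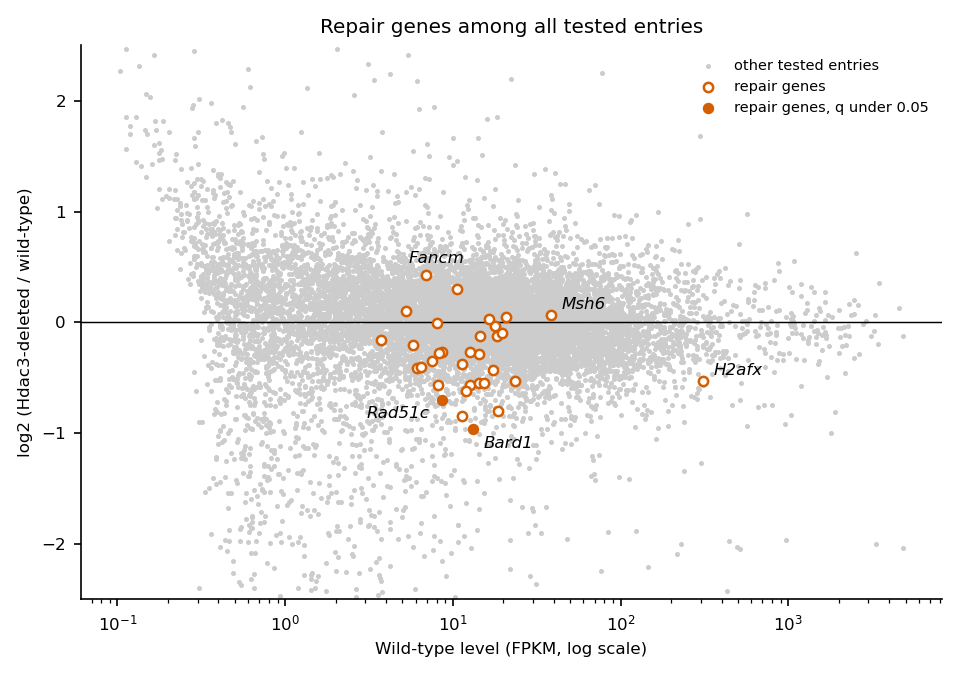
Wild-type level in FPKM on a log axis against log2 of Hdac3-deleted over wild-type FPKM, with grey points for tested entries, open circles for repair genes and filled circles for those with q under 0.05. The repair genes lie in the dense middle of the levels and mostly below 0, and 106 tested entries fall outside the drawn range.

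Of the 33 genes, 12 were listed, from other work, as expressed mostly while DNA is replicated. They are Brca1, Brca2, Bard1, Brip1, Rad54l, Fanca, Fancd2, Fanci, Blm, Exo1, H2afx and Msh6. Their median difference was -0.48, 11 of 12 lay below 0, and 1 was called, or 8.33%. The other 21 genes had a median of -0.16, with 16 below 0 and 1 called, or 4.76%. Over all tested entries 6.95% were called, so both counts of called genes were near the background. Together the levels of the 12 summed to 72.0% of wild-type and those of the 21 to 88.0%. H2afx made up 310 of the 471 FPKM of the 12 in wild-type, so their sum mostly follows that gene. The libraries hold polyadenylated RNA, and whether the H2afx RNA measured here is linked to replication was not tested. Msh6 was the 1 gene of the 12 with a positive difference.

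Further genes of these pathways, from lists made by function, also lay mostly below 0, with 64 of 82 tested. Of the 82, 7 were called lower and 1 higher, 9.76% beside 6.95% of all tested entries, and the median was -0.22. Among 32 further recombination genes, 4 were called lower and 0 higher, and 25 lay below 0. The 4 are 12.5%, beside 4.14% of all tested entries called lower. Fignl1, an ATPase of recombination, went from 49.0 to 28.1 FPKM, and Rad51ap1, which helps to pair strands, from 35.5 to 22.2 FPKM. Zranb3, a fork remodeller, went from 7.62 to 4.60 FPKM, and Rpa3, the small subunit of the single-strand binding protein RPA, from 108 to 68.9 FPKM.

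Among 16 further Fanconi genes 1 was called lower, or 6.25% beside 4.14% of all tested entries, and 13 lay below 0. Apitd1, the histone-fold partner of FANCM also called CENP-S, went from 33.4 to 17.1 FPKM, 51.2% of wild-type, while Fancm itself measured 134%. Among 18 further break signalling genes 0 were called, with 1 lower and 1 higher at an unadjusted p-value under 0.05 in the authors' Cuffdiff test. The median there was -0.08, with Topbp1, a checkpoint activator, at 72.8 and 63.7 FPKM and Rad9, of the checkpoint clamp, at 71.2 and 75.0 FPKM. Among 16 further mismatch repair genes, the clamp loader genes Rfc3 and Rfc5 were called lower and Msh5 higher. That is 18.8% called, beside 6.95% of all tested entries. Rfc3 went from 63.9 to 38.8 FPKM, Rfc5 from 57.3 to 35.3 FPKM and Msh5 from 8.64 to 14.6 FPKM. Msh5 is known for meiotic crossing over, not for correcting mismatches. The other Msh, Pms and Mlh genes of this list were not called. Msh3, Pms1, Pms2 and Mlh3 measured differences of -0.26, -0.25, -0.25 and 0.31.

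The end joining genes, which serve the RAG breaks, had a median difference of 0.06 over 12 tested. Polm, from 18.8 to 12.0 FPKM, was the 1 called gene. That is 8.33% called, beside 6.95% of all tested entries. Genes of DNA replication had a median of -0.43 over 30 tested, with 6 called lower, or 20%, and 0 higher. Among the called were Mcm10 at 22.2 and 13.0 FPKM and Rrm2 at 275 and 172 FPKM. Genes of mitosis had a median of -0.46 over 30, with 12 called lower, or 40%, and 0 higher, led by Nek2 at 44.5 and 20.1 FPKM. Of all tested entries 4.14% were called lower. The replication-linked repair genes thus lay beside the replication list in median, and the others nearer to the background. Of those other 21 genes 76.2% still lay below 0, against 46.6% of all tested entries. The split was made with earlier results of these data known. The part of the replication and mitosis levels in the differences of the repair genes was not tested. In sorted bulk cells, fewer cycling cells and less RNA per cell cannot be told apart.

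**Figure D4:**
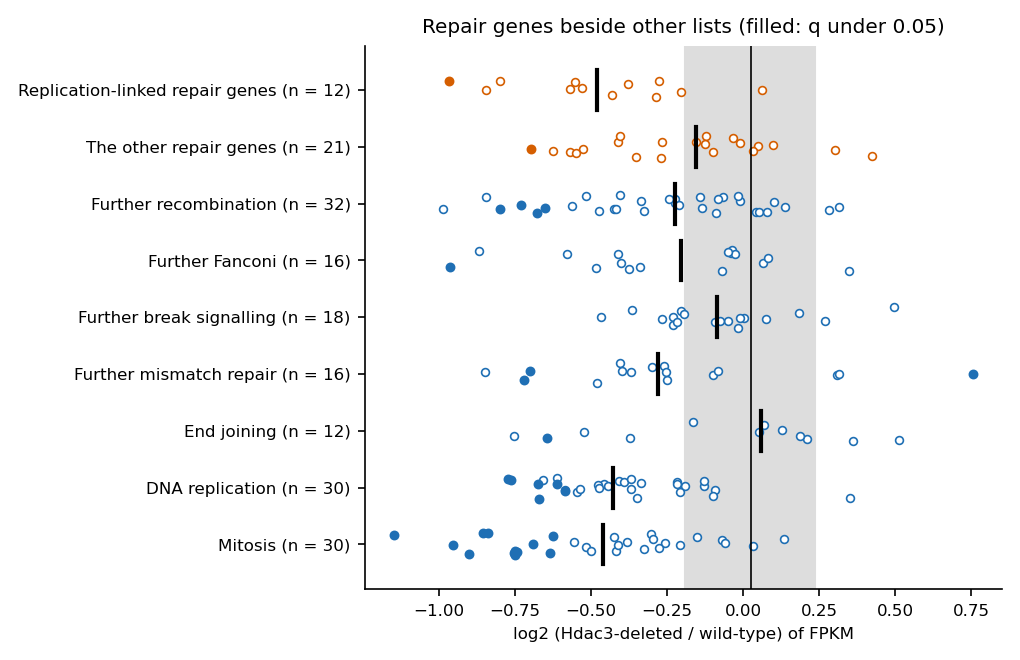
Difference of each tested gene as log2 of Hdac3-deleted over wild-type FPKM in the repair genes (orange) and in other lists (blue), with thick bars at the medians, filled points for q under 0.05, the median of all tested entries as a line and the range between its quartiles shaded. The 12 replication-linked repair genes centre at -0.48, DNA replication at -0.43 and end joining at 0.06.

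Hdac3 itself measured 46.8 against 22.0 FPKM over the whole gene, so the Hdac3-deleted group held 47.1%. Because that group also carries 1 null allele in every cell, this level does not by itself show deletion of the conditional allele, and "Hdac3-deleted" follows the genotype in the labels. B-lineage markers were present in both groups, with Cd79a at 268 and 334 FPKM and Spn, which encodes CD43, at 89.2 and 109 FPKM. Of 14 such markers 7 were called higher and 0 lower, all 14 lay above 0, and their summed level went from 2717 to 4321 FPKM. Of 17 neutrophil and myeloid markers 12 were called lower and 1 higher, and 16 lay below 0. Their sum went from 10936 to 2720 FPKM, with S100a8 at 4815 and 1172 FPKM and none at 0. The 10 plasmacytoid dendritic cell markers summed to 2986 and 3876 FPKM, with 0 called by Cuffdiff and 3 higher at an unadjusted p-value under 0.05. The 11 T and NK markers summed to 626 and 673 FPKM, with 0 called by Cuffdiff and 0 at that p-value. The 3 tested erythroid markers summed to 59.8 and 34.0 FPKM, and this sum mostly follows Car2. Car2 was called lower, at 54.4 and 26.3 FPKM. The globin entry Beta-s went the other way, from 5.01 to 7.37 FPKM, and was not called. Klf1 was near the floor at 0.397 and 0.372 FPKM. The part of these cells in the repair gene levels was not tested.

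Of the 33 genes, 7 share their locus entry with a neighbour in the deposited table, and their standard errors had a median of 0.41 against 0.28 for the other 26. They are Fanci with Polg, Rad54l with Lrrc41, Fancl with Vrk2, Fanca with Zfp276, Rad54b with Fsbp, Xrcc3 with Klc1 and Msh6 with Fbxo11. Overlap of exons with another annotated gene was a different split. Of the 33 genes 18 had some overlap and 11 had it over more than 5% of their exon bases, and the sources used here do not say whether strand was kept, so levels of those genes are less certain. Within the 7, the overlap was 35.9% of exon bases for Rad54b, 16.0% for Fanci, 15.4% for Rad54l, 13.7% for Fancl and 10.5% for Fanca, but 0.436% for Xrcc3 and 0.782% for Msh6. Outside them it reached 18.6% for Fancc, 15.0% for Fancf, 13.2% for Rnf8 and 10.2% for H2afx. Xrcc3, with the largest standard error of the 33 genes, 0.62, was thus among those with little overlap. Fsbp and Polg measured differences of -0.74 and -0.50, and Lrrc41, Zfp276, Vrk2 and Klc1 between -0.05 and 0.07. Fbxo11 measured 0.37, and none of these neighbours was called.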

How the data were processed

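The labels gave the genotype of 4 libraries of polyadenylated RNA, 2 per genotype. Per the submitters' processing notes, Trimmomatic 0.32, TopHat2 2.0.11 and Cuffdiff 2.1.1 were used with mm10, and the sources used here do not give their options or gene annotation. The deposited table holds 1 FPKM value per gene and genotype, which the authors made from both libraries, and depth per library is unknown. The authors' test statistic is a deposited score, and the table also gives the authors' p-value and q-value. No deposited p-value is under 5e-05, a value that 396 entries have. P-values rest on the authors' Cuffdiff model with 2 pooled libraries per genotype. They are not a direct measure of the spread of a gene between those libraries.

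Fold changes were computed from FPKM without a pseudocount, because spreadsheet errors filled 688 cells of the authors' own column. Standard errors are the log2 difference over the test statistic. The 95% intervals use a normal distribution without adjustment over genes, and gaps between 2 genes treat them as independent. They are wider than the deposited p-values imply. Calls are the authors' q-value under 0.05 over all 12683 tested entries. Lists, roles and members were chosen with earlier results of these data known. Every member could be named. Of other lists the rule took up to 4 called genes by smallest q-value, with ties broken by fold. Where none was called it took the 2 highest. Markers besides these, and Msh3, Pms1, Pms2 and Mlh3, were chosen after their values were seen. The older symbols of 9 listed genes were matched through RefSeq (GRCm38.p6). Listed markers with no tested entry are left out, and 1 further erythroid marker is not reported here. Starts are given counting from 1. Exon overlaps use GENCODE M21, on the same build. Alternatives varied the threshold, the pseudocount, the centring, a minimum level or fold, and shared loci. Counts, medians and the adjustment were tested on simulated data. Software was Python 3.11.15 with matplotlib 3.10.9, numpy 2.4.6, pandas 2.3.3 and scipy 1.17.1.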

Additional observations from a re-analysis of the deposited data

How the results depend on the processing

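The count of lower repair genes depended on the threshold. It was 6 at a q-value under 0.1, 1 at a q-value under 0.01 and 1 with a normal p-value of the test statistic, against 2 in the report. It was also 2 with a minimum of 1 FPKM, a minimum of 1.5-fold, or without entries that share a locus, and the count of higher genes was 0 under each of these 6 alternatives. The median difference of -0.28 ran from -0.31, centred on the median of all tested entries, to -0.26, with a pseudocount of 1 FPKM, and the other 3 alternatives lay between. No repair gene changed the sign of its difference under the pseudocount or the centring, and 27 of 33 stayed below 0 when centred. Medians of the other lists, under alternatives chosen after seeing the data, moved by less than the median standard error of the repair genes. No paired analysis was possible because the table holds 1 value per genotype, and for the same reason no replicate could be left out. Without values per library the spread between libraries and the depth are unknown, which limits every difference above.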
